A study of Mus musculus with 11 samples.

Results

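Cultured microglia, the resident macrophages of the brain, were compared after 16 h with bacterial lipopolysaccharide plus interferon gamma and without stimulation. The comparison took the 2 arrays labelled LPS/IFNg and the 3 arrays labelled as having no treatment, 5 of the 11 arrays in the series. LPS/IFNg cells had lipopolysaccharide at 100 ng/ml and interferon gamma at 20 ng/ml for 16 h. Genes were tested if a probe was detected on at least 2 of the 11 arrays. All cells came from the brains of newborn C57BL/6J mice, grown in serum-containing medium, so the untreated cells were a culture and not resting tissue. The other 6 arrays were cells given IL-4 or TGFb for 48 h. Those arrays entered the normalisation, the detection filter, the choice of probe per gene and the estimate of the spread, but not the group means compared. The labels give no time in culture for the untreated cells, so the length of the incubation and the stimulus cannot be told apart where they might differ. They also do not say whether replicates were separate cultures or animals, and the p-values therefore measure only the spread between these arrays. LPS/IFNg is represented by the replicates numbered 1 and 3.

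Each array was an Illumina BeadChip hybridised with biotin-labelled cRNA. Values below are log2 signals after background correction and quantile normalisation. Differences are LPS/IFNg minus untreated on the log2 scale with their standard error, and a gene was called changed at a Benjamini-Hochberg adjusted p below 0.05 in the limma fit over 8952 genes. A probe that no array of the dimmer group detected has only a limit in that group, and such differences are written as at least N-fold. The limit on each array is the signal of its dimmest detected probe, or the probe's own value if that is higher, and the fold is the brighter group's mean over the mean of these limits. Where at least 1 array of the dimmer group detected the probe, the difference is given as measured. Its size then rests partly on values near background if other arrays of that group did not detect it. Cxcl9, Il6, Traf1 and Ccnd2 are such cases among the untreated arrays. Between 12427 and 12617 probes were detected on the LPS/IFNg arrays and between 13869 and 13989 on the untreated arrays. The LPS/IFNg arrays correlated with each other at r = 0.982 over genes and the untreated arrays at 0.968 to 0.983, while pairs across the groups gave 0.832 to 0.853. LPS/IFNg replicate 1 was on slide 1, and LPS/IFNg replicate 3 and all untreated arrays were on slide 2. One array outside the comparison stood apart: IL-4 replicate 1 correlated with the other IL-4 arrays at 0.945 to 0.954, against 0.987 between those, and its values enter the estimate of the spread.

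As background, lipopolysaccharide from bacterial walls binds Toll-like receptor 4 with its partners and acts through the adaptors MyD88 and TRIF on NF-kB and the interferon regulatory factors. Interferon gamma acts through its receptor and the kinases JAK1 and JAK2, and its target genes often carry so-called GAS elements in their DNA. Given together these signals are the classic stimulus for nitric oxide, inflammatory cytokines and antigen presentation in macrophages and microglia, whereas TGFb and colony-stimulating factor 1 signals maintain the resting identity of microglia.

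The response took in 41% of the genes tested: 1568 genes rose (17.5%) and 2106 fell (23.5%) in LPS/IFNg cells. Changes of at least 2-fold were found for 880 of the risers and 1306 of the fallers, and changes of at least 8-fold for 159 and 142. Groups did not overlap for 63.1% of all genes, and for 3667 of the 3674 called ones. Of the called risers, 183 were detected on no untreated array, and of the called fallers 502 were detected on no LPS/IFNg array. The arrays of slide 2 alone (1 LPS/IFNg array against 3 untreated) called 927 genes higher and 1343 lower. Median scaling in place of quantile normalisation called 1011 higher and 2322 lower, so that 30.3% of the called genes were higher, against 42.7% after quantile normalisation, and the differences of all genes were shifted by a median of -0.22. Without IL-4 replicate 1 the counts were 1732 and 2277. The counts given for gene lists below are to be read against these shares of 17.5% and 23.5%, and they cover the members that passed the detection filter, some of which passed only through the group where they were high. A total of 5278 genes were not called, and for 3691 of these the 95% interval of the difference lay within 1 log2 unit of 0.

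**Figure D1:**
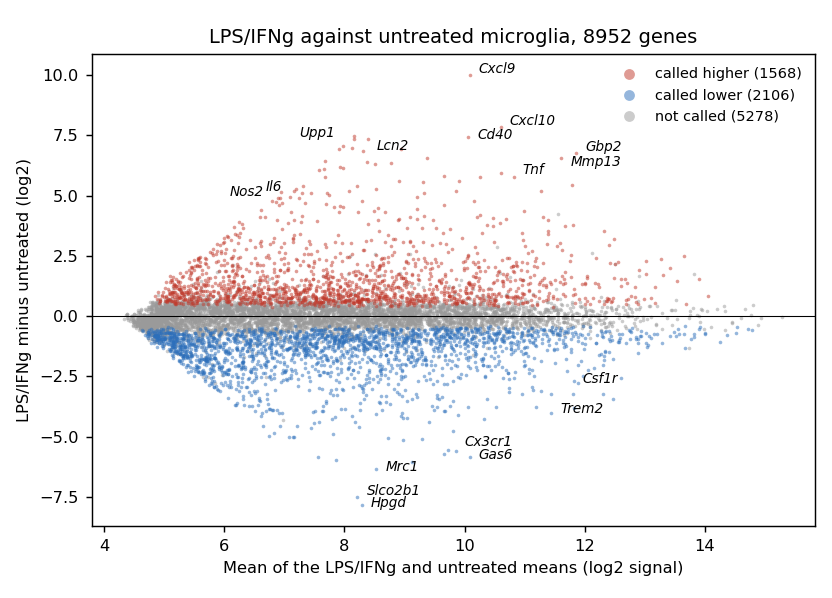
Difference between LPS/IFNg and untreated means (log2) against the mean signal of both groups (log2), 1 point per gene, coloured by the call at adjusted p below 0.05. Cxcl9 is the highest point at 9.99 and Hpgd the lowest at -7.82.

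The 15 largest rises included chemokines, guanylate-binding proteins and costimulatory receptors. Cxcl9, the interferon-gamma-induced chemokine that attracts T cells, read 15.08 and 15.08 on the LPS/IFNg arrays, against 4.89, 5.76 and 4.64 on the untreated arrays. The groups lay far apart, and the rise was 9.99 ± 0.51, adjusted p = 3.47e-07. Untreated replicates 1 and 3 lay below the dimmest detected probe of their arrays (5.08 and 5.07), so the exact size of this rise is uncertain. On the other 6 arrays Cxcl9 ranged from 4.40 to 6.52. Cxcl10, which binds the same receptor, read 14.46 and 14.57 on the LPS/IFNg arrays, against 6.16, 8.00 and 5.91 on the untreated arrays (rise of 7.83 ± 0.57, adjusted p = 3.23e-06). Upp1, uridine phosphorylase, read 12.09 and 11.55 on the LPS/IFNg arrays, against 4.45, 4.49 and 4.51 on the untreated arrays, and was detected on no untreated array. The rise of Upp1 was at least 108-fold (adjusted p = 3.57e-09). Other rises of this size were those of Serpina3f, a serine protease inhibitor (at least 113-fold), AA467197 (at least 93.6-fold), the secreted nuclease gene Dnase1l3 (at least 86.3-fold), Lcn2, the iron-siderophore carrier lipocalin 2 (7.33 ± 0.62, adjusted p = 8.69e-06), and Mmp13, a collagenase (6.56 ± 0.43, adjusted p = 1.63e-06). Mmp13 reached 14.95 and 14.83 on the LPS/IFNg arrays, against 8.93, 8.19 and 7.87 on the untreated arrays. Quantile normalisation gives the brightest probes of all arrays the same values, so rises that end at the top of the range, such as those of Cxcl9 and Gbp2, cannot be read beyond it.

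Of 27 listed inflammatory cytokines, 19 passed the detection filter, and of these 16 rose and 0 fell, with a median difference of 1.88 where all genes tested had a median of -0.07. Of the tested members 9 were detected on no untreated array, and with detection required on at least 4 arrays 8 of 9 rose. Tnf, which encodes tumour necrosis factor, read 13.41 and 14.00 on the LPS/IFNg arrays, against 8.10, 8.19 and 7.51 on the untreated arrays, a rise of 5.78 ± 0.31, adjusted p = 4.39e-07. Il6 read 9.79 and 9.88 on the LPS/IFNg arrays, against 5.25, 4.51 and 4.49 on the untreated arrays and rose by 5.09 ± 0.23, adjusted p = 1.49e-07. For Tnf and Il6 the groups were separated by more than 4 log2 units. Il1a, interleukin 1 alpha, rose by 5.21 ± 0.53, adjusted p = 3.00e-05, and Il1b by 2.37 ± 0.80, adjusted p = 0.0357. Il1b was detected on all untreated arrays, with 14.64 and 14.28 on the LPS/IFNg arrays, against 12.77, 11.20 and 12.30 on the untreated arrays, and with 1 array left out its adjusted p was as high as 0.154. The natural antagonist of the interleukin 1 receptor, Il1rn, showed the largest rise of the list (6.54 ± 0.77, adjusted p = 8.13e-05).

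Both subunits of interleukin 27 rose. Il27 was detected on no untreated array and rose at least 30.7-fold (9.66 and 10.36 on the LPS/IFNg arrays), while its partner Ebi3 was detected on all untreated arrays and rose by 1.88 ± 0.26, adjusted p = 2.14e-04. Ifnb1, interferon beta, rose at least 6.29-fold with 7.30 and 8.15 on the LPS/IFNg arrays, and Tnfsf10, the death ligand TRAIL, at least 12-fold. Il15 rose by 1.90 ± 0.45, adjusted p = 0.00613, together with its presenting receptor Il15ra, described below, and Il18 by 1.70 ± 0.25, adjusted p = 3.52e-04. Smaller rises to levels just above detection were called for Il10 (at least 1.74-fold), Csf3 (at least 1.59-fold), Lta (at least 1.52-fold) and Tnfsf9 (at least 2.49-fold). Csf1 rose by 0.79 ± 0.24, adjusted p = 0.0224 (up to 0.151 with 1 array left out).

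**Figure D2:**
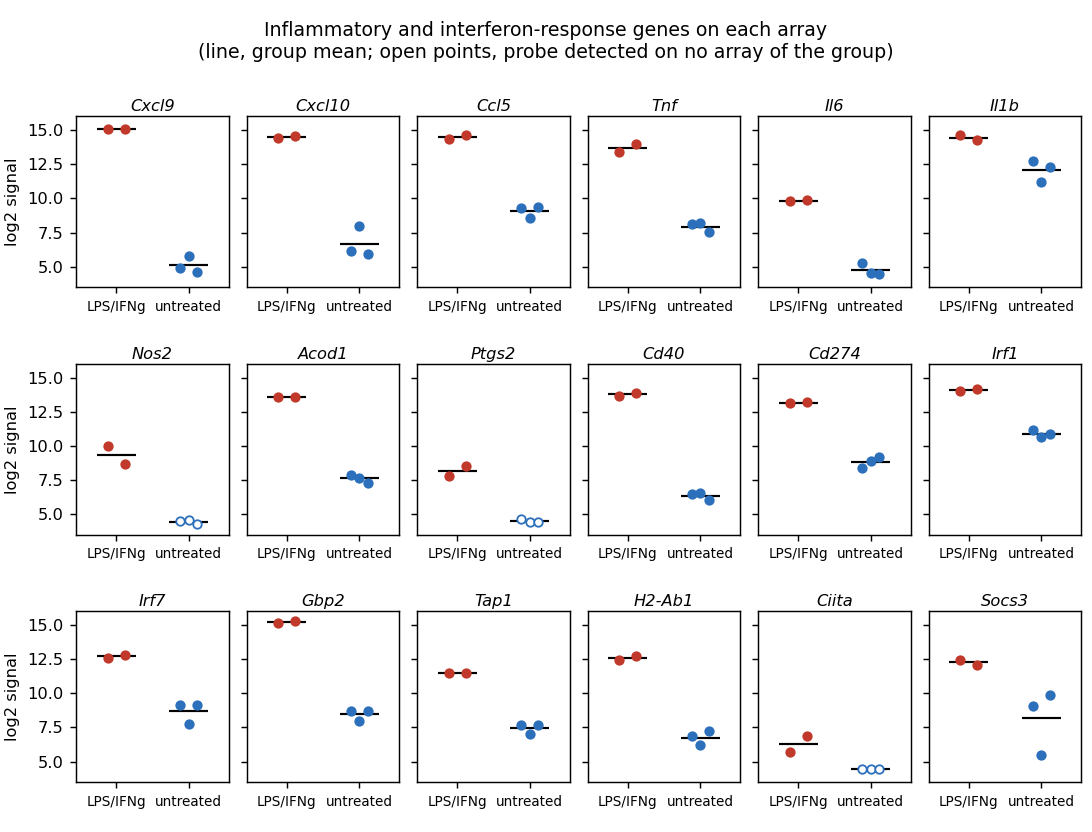
Log2 signal of 18 inflammatory and interferon-response genes on each LPS/IFNg array (red) and each untreated array (blue). In every panel the LPS/IFNg points lie above all untreated points. Open points for Nos2, Ptgs2 and Ciita mark probes detected on no untreated array.

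Among 10 tested CXC chemokines, 5 rose and 2 fell. Besides Cxcl9 and Cxcl10, these were Cxcl13, the B cell attractant (3.07 ± 0.63, adjusted p = 0.00295), Cxcl2, a neutrophil attractant (3.05 ± 0.61, adjusted p = 0.00244), and Cxcl16 (1.36 ± 0.28, adjusted p = 0.00312). The fallers were Cxcl14, which read 6.46 and 5.66 on the LPS/IFNg arrays, against 10.01, 9.90 and 10.67 on the untreated arrays (difference of -4.13 ± 0.61, adjusted p = 3.66e-04), and Pf4, platelet factor 4 (-3.52 ± 0.86, adjusted p = 0.00769, up to 0.0601 with 1 array left out). Pf4 was lower on untreated replicate 2 than on the other untreated arrays, with 8.33 and 7.78 on the LPS/IFNg arrays and 12.64, 10.002 and 12.08 on the untreated arrays.

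Of 11 CC chemokines, 6 rose and 1 fell. Ccl5, an attractant of T cells and monocytes, read 14.36 and 14.64 on the LPS/IFNg arrays, against 9.28, 8.56 and 9.40 on the untreated arrays and rose by 5.42 ± 1.10, adjusted p = 0.0027. The monocyte attractants Ccl2 and Ccl7 rose by 4.53 ± 0.83 and 5.60 ± 1.27 (adjusted p = 0.00148 and 0.00511). Both were close to background on untreated replicate 2 and higher on replicates 1 and 3: Ccl2 read 6.53, 4.34 and 6.27 there, against 9.90 and 10.59 on the LPS/IFNg arrays. Ccl3 and Ccl4, attractants of monocytes and T cells, were detected on all untreated arrays and rose by 2.94 ± 0.56 and 2.48 ± 0.50 (adjusted p = 0.00177 and 0.00272). Ccl8 was detected on no untreated array and rose at least 24.7-fold (adjusted p = 0.0365). Its standard error was 1.66, with values on the other 6 arrays from 4.38 to 13.46, and the adjusted p reached 0.185 with 1 array left out. Ccl6 fell by 2.44 ± 0.38, adjusted p = 5.27e-04.

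The enzymes of nitric oxide, prostaglandin E2 and itaconate synthesis also rose. Nos2, inducible nitric oxide synthase, read 9.99 and 8.69 on the LPS/IFNg arrays, against 4.47, 4.59 and 4.31 on the untreated arrays. It was detected on both LPS/IFNg arrays and on no untreated array, a rise of at least 19.3-fold (adjusted p = 1.14e-06), and LPS/IFNg replicate 1 was the higher array. Slc7a2, a transporter of its substrate arginine, rose at least 61.9-fold, and Ass1, which remakes arginine from citrulline, by 3.21 ± 0.59, adjusted p = 0.00151. In the list of arginine, nitric oxide and reactive oxygen genes 8 of 15 rose and 2 fell, the fallers being the mitochondrial arginase Arg2 (-1.61 ± 0.45, adjusted p = 0.0153, up to 0.184 with 1 array left out) and Spr, sepiapterin reductase (-1.82 ± 0.24, adjusted p = 1.50e-04). Arg1, the cytosolic arginase, differed by -0.99 ± 0.81, adjusted p = 0.356, with a 95% interval of -2.79 to 0.81.

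Acod1, which makes itaconate from the citric acid cycle intermediate cis-aconitate, read 13.59 and 13.57 on the LPS/IFNg arrays, against 7.90, 7.67 and 7.30 on the untreated arrays and rose by 5.96 ± 0.77, adjusted p = 1.47e-04. Both LPS/IFNg arrays lay far above all untreated ones. Ptgs2, cyclooxygenase 2, was detected on no untreated array and rose at least 8.42-fold, and Ptges, the inducible prostaglandin E synthase, rose by 5.38 ± 0.39, adjusted p = 3.22e-06. Hpgd, which inactivates prostaglandin E2, read 4.48 and 4.29 on the LPS/IFNg arrays, against 12.12, 12.68 and 11.81 on the untreated arrays and fell at least 114-fold (adjusted p = 1.02e-07), the largest fall of all genes. In the whole list of prostaglandin and leukotriene genes 3 of 13 rose (23.1%, near the share of all genes) and 6 fell (46.2%). The fallers included the leukotriene genes Alox5ap, 5-lipoxygenase activating protein (-3.36 ± 0.39, adjusted p = 7.59e-05), and Ltc4s, leukotriene C4 synthase (at least 1.81-fold).

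Interferon-inducible GTPases, many of which disrupt the vacuoles of intracellular microbes, rose in 15 of 15 tested cases, with a median of 4.40, and the count was 15 with any 1 of the 5 arrays left out. The list has 23 members, of which 21 are on the array. With no filter on dim probes 15 of 21 rose, and 4 of the 15 were detected on no untreated array. Gbp2, a guanylate-binding protein, read 15.14 and 15.33 on the LPS/IFNg arrays, against 8.74, 7.97 and 8.72 on the untreated arrays, a rise of 6.76 ± 0.99, adjusted p = 3.52e-04. Gbp2b and Gbp5 were detected on no untreated array and rose at least 79.9-fold and at least 56.6-fold. Irgm1, a regulatory immunity-related GTPase, was detected on all untreated arrays and had the smallest rise of the list, 1.56 ± 0.29, adjusted p = 0.00143, while Igtp rose by 3.74 ± 0.48, adjusted p = 1.37e-04 and Tgtp1 at least 17.4-fold. Mx1 and Mx2, genes of dynamin-like GTPases, rose by 4.33 ± 0.57 and 3.38 ± 0.68 (adjusted p = 1.65e-04 and 0.00246). Guanylate-binding genes are close paralogs, and probes designed for 1 may bind another.

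The antiviral interferon-stimulated genes gave 34 risers and 0 fallers among 42 tested (median 2.12). With 1 of the 5 arrays left out between 23 and 34 rose, and without IL-4 replicate 1 the number was 36. Oasl1, an oligoadenylate synthetase-like regulator, read 11.92 and 11.98 on the LPS/IFNg arrays, against 5.21, 4.99 and 6.57 on the untreated arrays and rose by 6.36 ± 0.91, adjusted p = 2.94e-04. Ifi205, of the DNA-sensor family on chromosome 1, rose by 6.31 ± 0.82, adjusted p = 1.48e-04, and Rsad2, the antiviral protein viperin, by 5.19 ± 0.85, adjusted p = 7.02e-04.

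Among 19 interferon regulatory factors, STATs and their partners, 7 rose and 0 fell (1 fell without untreated replicate 3). Batf2, an AP-1 family partner of IRF1, had the largest rise and read 11.56 and 11.58 on the LPS/IFNg arrays, against 4.92, 5.11 and 5.49 on the untreated arrays (rise of 6.397 ± 0.42, adjusted p = 1.63e-06). Irf1 read 14.03 and 14.13 on the LPS/IFNg arrays, against 11.16, 10.64 and 10.89 on the untreated arrays and rose by 3.18 ± 0.38, adjusted p = 9.31e-05, while Irf7, a factor for type I interferon genes, rose by 4.02 ± 1.03, adjusted p = 0.00986 (up to 0.0598 with 1 array left out). The other called members were Stat2 (2.40 ± 0.59, adjusted p = 0.00795), Batf (2.38 ± 0.35, adjusted p = 3.52e-04) and the receptor-associated kinases Jak2 (2.85 ± 0.31, adjusted p = 4.55e-05) and Tyk2 (1.47 ± 0.20, adjusted p = 2.05e-04). Il12b and the proliferation marker Mki67 had no probe that passed the filter and were not tested.

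RefSeq windows of 300 bases (GRCm38.p6, 250 before to 50 after a gene's start) were found for 7338 of the tested genes. They were searched on both strands for 3 patterns, whose matches could overlap. The pattern TTTCNNTTTC, the core of the interferon-stimulated response element (ISRE), was found in 5.83% of 1647 windows of risers, 2.43% of 2306 windows of fallers and 3.33% of all 9405 windows of tested genes. Among the 85 windows of the 100 largest rises the share was 21.2%, and among the 113 windows of the 100 largest falls it was 2.65%. TTCNNNGAA, the core of a GAS element, was found in 7.83% of windows of risers, 6.90% of windows of fallers and 12.9% of windows of the 100 largest rises. GGGNNTTTCC, an NF-kB type pattern, was found in 2.73%, 1.52% and 5.88% of these windows. Over all windows of tested genes the GAS and NF-kB types had shares of 6.99% and 1.74%. The 85 windows of the largest rises belong to 70 genes, and 18, 11 and 5 of these windows held the ISRE, GAS and NF-kB types. Over all 32851 windows in the table, tested or not, the shares were 3.44%, 8.30% and 1.63%. The 100 largest changes were picked by their values in these data, and a match is a description of the letters and not a binding site.

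The following windows, 5′ to 3′ on the gene's strand, show the patterns in genes that rose, chosen because they hold a match. Capitals mark the matches: an ISRE-type core in Cxcl10, ISRE, GAS and NF-kB types together in Gbp5, a GAS type in Irf1 and Socs3, and an NF-kB type in Il6.
Cxcl10: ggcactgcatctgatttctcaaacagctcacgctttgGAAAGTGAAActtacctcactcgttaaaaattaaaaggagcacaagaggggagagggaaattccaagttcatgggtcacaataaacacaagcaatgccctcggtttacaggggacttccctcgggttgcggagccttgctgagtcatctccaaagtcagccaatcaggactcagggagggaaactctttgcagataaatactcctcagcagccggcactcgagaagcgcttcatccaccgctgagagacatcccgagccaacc
Gbp5: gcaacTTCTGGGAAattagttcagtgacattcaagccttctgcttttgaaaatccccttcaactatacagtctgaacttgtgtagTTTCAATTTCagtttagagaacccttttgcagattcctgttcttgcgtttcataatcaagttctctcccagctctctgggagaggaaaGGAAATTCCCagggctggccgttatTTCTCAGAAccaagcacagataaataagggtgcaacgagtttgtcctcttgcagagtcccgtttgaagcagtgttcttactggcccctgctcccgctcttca
Irf1: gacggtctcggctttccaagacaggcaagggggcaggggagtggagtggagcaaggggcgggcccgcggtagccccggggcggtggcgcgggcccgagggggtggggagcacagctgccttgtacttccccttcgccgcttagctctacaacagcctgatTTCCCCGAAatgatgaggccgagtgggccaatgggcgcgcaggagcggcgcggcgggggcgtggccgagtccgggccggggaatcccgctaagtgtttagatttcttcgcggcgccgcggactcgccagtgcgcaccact
Socs3: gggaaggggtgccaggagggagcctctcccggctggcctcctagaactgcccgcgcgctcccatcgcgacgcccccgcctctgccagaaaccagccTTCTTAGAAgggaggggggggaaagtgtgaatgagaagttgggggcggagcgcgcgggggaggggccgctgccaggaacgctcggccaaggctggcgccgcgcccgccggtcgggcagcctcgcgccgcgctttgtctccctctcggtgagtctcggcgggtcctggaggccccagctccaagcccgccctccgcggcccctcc
Il6: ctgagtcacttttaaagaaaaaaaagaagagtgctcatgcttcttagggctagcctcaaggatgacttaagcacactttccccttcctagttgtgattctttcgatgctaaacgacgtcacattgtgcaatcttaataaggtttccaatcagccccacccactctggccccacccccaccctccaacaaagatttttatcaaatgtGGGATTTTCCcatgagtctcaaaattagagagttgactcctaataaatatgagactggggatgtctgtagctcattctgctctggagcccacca
They lie at chr5:92348840-92349139 on the minus strand, chr3:142496684-142496983 on the plus strand, chr11:53769764-53770063 on the plus strand, chr11:117969317-117969616 on the minus strand and chr5:30012864-30013163 on the plus strand. A second Irf1 window, at chr11:53770223-53770522, held none of the 3 patterns.

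Feedback inhibitors mostly rose. In the list of SOCS proteins and other inhibitors 15 of 25 rose and 4 fell. Dusp2, a phosphatase of MAP kinases, was detected on no untreated array and rose at least 45-fold. Socs1, the inhibitor of JAK kinases, rose at least 3.23-fold, and Zc3h12a, the RNase regnase-1, by 3.14 ± 0.38, adjusted p = 9.64e-05. Socs3 read 12.42 and 12.11 on the LPS/IFNg arrays, against 9.08, 5.48 and 9.91 on the untreated arrays. Untreated replicate 2 lay well below the other untreated arrays, and the rise of 4.10 ± 1.196, adjusted p = 0.0186 reached an adjusted p of 0.0922 with 1 array left out. Falls were called for Dusp4 (at least 2.29-fold), Dusp6 (-1.32 ± 0.44, adjusted p = 0.0346, up to 0.266 with 1 array left out) and Socs5 (-1.18 ± 0.18, adjusted p = 4.92e-04), and for 1 other member.

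Among 19 NF-kB subunits, inhibitors and adaptors, 14 rose and 0 fell. Traf1, an adaptor of tumour necrosis factor receptors, read 11.80 and 11.67 on the LPS/IFNg arrays, against 5.12, 4.54 and 4.998 on the untreated arrays (rise of 6.85 ± 0.60, adjusted p = 1.11e-05). Nfkbiz, an atypical IkB protein needed for secondary response genes in macrophages, rose by 3.74 ± 0.44, adjusted p = 8.06e-05, and the subunit Rel by 2.79 ± 0.25, adjusted p = 1.31e-05.

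Toll-like and related receptors and their adaptors did not move as a block. Of 23 Toll-like and related receptors and adaptors, 10 rose and 7 fell. Tlr4, the receptor of lipopolysaccharide, read 8.28 and 8.26 on the LPS/IFNg arrays, against 9.503, 9.68 and 9.34 on the untreated arrays and fell by 1.24 ± 0.22, adjusted p = 0.00116. Tlr2, the receptor of bacterial lipoproteins, fell by 2.49 ± 0.47, adjusted p = 0.00168, whereas its partners Tlr1 and Tlr6 rose by 2.31 ± 0.27 and 2.03 ± 0.19 (adjusted p = 6.90e-05 and 1.53e-05). The groups did not overlap for these 4 receptors. Nucleic acid sensors were divided as well: Tlr3 (double-stranded RNA) and Tlr9 (DNA) rose by 1.25 and 1.06, while Tlr7, Tlr8 and Tlr13 (RNA) had differences of -0.97, -1.38 and -2.23, all called (adjusted p = 0.00319, 0.0165, 0.00622, 0.00566 and 0.00564). The cytosolic peptidoglycan sensor Nod1 had the largest rise of the list, 3.25 ± 0.29, adjusted p = 1.25e-05. Nod2 rose at least 2.39-fold. The adaptors Myd88, Ticam1 (TRIF), Ticam2 and the kinase Irak2 rose by 1.33, 1.02, 1.29 and 2.05, and the kinase Irak1 fell by 0.90 ± 0.20, adjusted p = 0.00403. Ly86, also known as MD-1, fell by 2.03 ± 0.24, adjusted p = 8.53e-05. The calls of Tlr7, Tlr8, Tlr9, Tlr13 and Ticam1 were lost with some array left out (adjusted p up to 0.171, for Tlr9).

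Cytokine receptors gave 4 rises and 5 falls among 24, shares of 16.7% and 20.8% that lie near those of all genes (17.5% and 23.5%). Under median scaling 8 fell. Ifngr1, the ligand-binding chain of the interferon gamma receptor, read 8.5997 and 8.67 on the LPS/IFNg arrays, against 11.08, 11.27 and 11.08 on the untreated arrays and fell by 2.51 ± 0.30, adjusted p = 9.89e-05. The arrays within each group lay close together and the groups far apart. Csf1r, the receptor of colony-stimulating factor 1, fell by 2.68 ± 0.27, adjusted p = 3.19e-05, and both chains of the TGFb receptor fell, Tgfbr1 by 2.19 ± 0.23, adjusted p = 3.22e-05 and Tgfbr2 by 1.07 ± 0.20, adjusted p = 0.00147. Il10rb fell by 1.14 ± 0.27, adjusted p = 0.0059 while Il10ra, the other chain of the interleukin 10 receptor, rose by 0.81 ± 0.25, adjusted p = 0.0258 (up to 0.114 with 1 array left out). Il15ra, which presents interleukin 15, read 9.06 and 9.42 on the LPS/IFNg arrays, against 5.10, 5.63 and 5.23 on the untreated arrays, a rise of 3.93 ± 0.24, adjusted p = 1.14e-06. Il12rb1, shared by the interleukin 12 and 23 receptors, rose at least 7.09-fold, and Tnfrsf1b, tumour necrosis factor receptor 2, by 1.53 ± 0.26, adjusted p = 9.18e-04.

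Of 10 tested receptors for chemokines and other attractants, 3 rose and 5 fell (2 and 3 without LPS/IFNg replicate 3). Cx3cr1, the fractalkine receptor of microglia, read 8.07 and 6.05 on the LPS/IFNg arrays, against 12.89, 11.99 and 13.07 on the untreated arrays and fell by 5.59 ± 0.62, adjusted p = 5.70e-05. It was detected on all 5 arrays, and the LPS/IFNg arrays differed from each other by an amount among the 5 largest such gaps of all called genes. Cxcr4 fell at least 14.2-fold and Gpr183, an oxysterol receptor, at least 19.5-fold. The purinergic receptors P2ry12, which steers microglial processes to ATP, and P2ry13 fell as well. P2ry12 read 4.87 and 4.68 on the LPS/IFNg arrays, against 7.62, 5.76 and 7.06 on the untreated arrays and fell at least 2.72-fold (adjusted p = 0.0141). P2ry13 fell by 2.62 ± 0.63, adjusted p = 0.00709. With 1 array left out the adjusted p reached 0.081 for P2ry12 and 0.0639 for P2ry13. Risers were Ccr7, the receptor for lymph node homing, with at least 4.67-fold, the chemerin-binding receptor Ccrl2 (4.11 ± 0.23, adjusted p = 5.74e-07) and the formyl peptide receptor Fpr2 (3.55 ± 0.98, adjusted p = 0.0141, up to 0.0718 with 1 array left out).

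**Figure D3:**
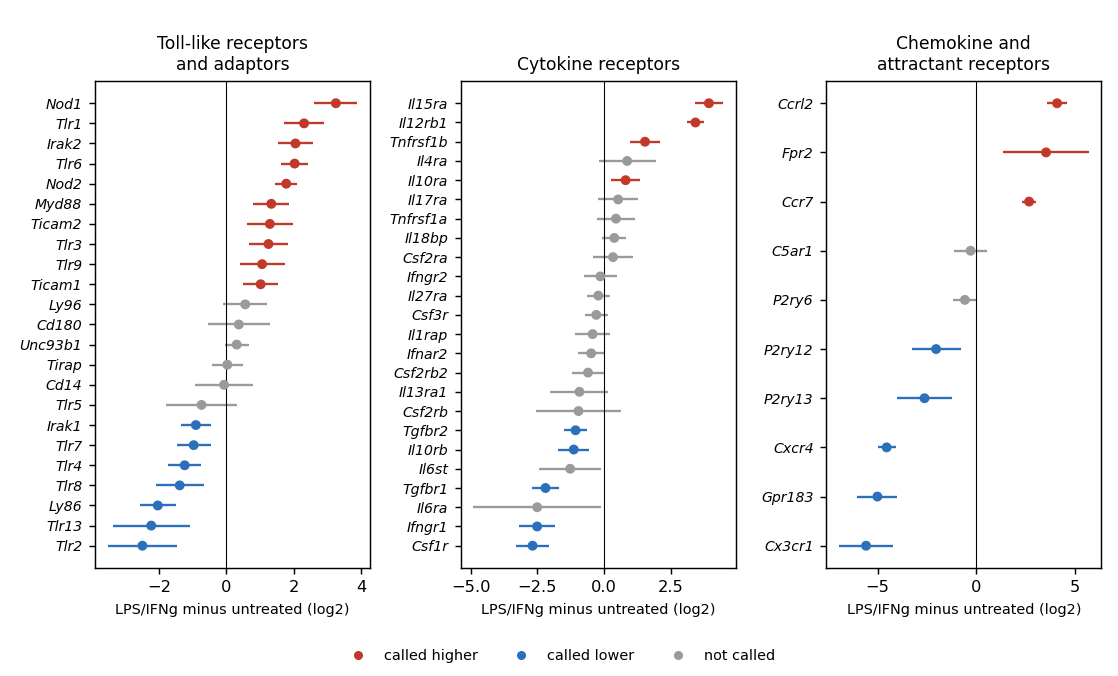
Difference between LPS/IFNg and untreated (log2, points) with its 95% interval (bars) for every tested member of 3 receptor lists, coloured by the call. Rises and falls both occur in each list: Nod1 (3.25) and Tlr2 (-2.49) are the ends of the first, Il15ra (3.93) and Csf1r (-2.68) of the second, and Ccrl2 (4.11) and Cx3cr1 (-5.59) of the third.

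Genes of antigen presentation to T cells rose in both classes. For class I and peptide transport 15 of 19 rose and 0 fell (median 2.19). Tap1, a chain of the peptide transporter, read 11.47 and 11.49 on the LPS/IFNg arrays, against 7.68, 7.04 and 7.70 on the untreated arrays and rose by 4.01 ± 0.52, adjusted p = 1.48e-04. Nlrc5, the transactivator of class I genes, rose by 3.62 ± 0.52, adjusted p = 2.93e-04, and the class I genes H2-Q6 and H2-Q8 by 3.9995 ± 0.73 and 3.81 ± 0.84 (adjusted p = 0.00143 and 0.00417), with the reserve that H2-Q genes are near-identical and their probes may bind each other. Of 17 proteasome genes, 14 rose and 0 fell. The immunoproteasome subunits Psmb9 and Psmb8 led with 2.21 ± 0.35, adjusted p = 5.68e-04 and 1.95 ± 0.19, adjusted p = 2.33e-05, followed by the activator subunit Psme2 (1.89 ± 0.27, adjusted p = 2.60e-04).

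Class II genes rose in 9 of 15 cases and fell in 1. H2-Ab1 read 12.42 and 12.70 on the LPS/IFNg arrays, against 6.89, 6.19 and 7.21 on the untreated arrays, a rise of 5.79 ± 0.48, adjusted p = 8.26e-06. H2-Eb1 rose by 6.14 ± 0.38, adjusted p = 1.21e-06, and H2-Aa, detected on no untreated array, at least 25.7-fold. Their transactivator Ciita read 5.69 and 6.87 on the LPS/IFNg arrays, against 4.43, 4.44 and 4.48 on the untreated arrays and rose at least 2.32-fold. The cathepsin Ctss, which trims the class II chaperone, fell by 0.89 ± 0.27, adjusted p = 0.0225 (up to 0.115 with 1 array left out).

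Among 22 costimulatory and checkpoint molecules, 11 rose and 4 fell. Cd40 read 13.67 and 13.88 on the LPS/IFNg arrays, against 6.46, 6.55 and 6.01 on the untreated arrays (rise of 7.43 ± 0.78, adjusted p = 3.80e-05), and Slamf7, a SLAM-family receptor, 12.39 and 12.42 on the LPS/IFNg arrays, against 5.71, 5.55 and 5.17 on the untreated arrays (rise of 6.93 ± 0.43, adjusted p = 1.14e-06). The inhibitory ligand Cd274, known as PD-L1, read 13.14 and 13.18 on the LPS/IFNg arrays, against 8.38, 8.91 and 9.15 on the untreated arrays and rose by 4.34 ± 0.28, adjusted p = 1.63e-06. Checkpoint members of the same list fell: Cd276 (B7-H3) at least 3.1-fold, Vsir (VISTA) by 2.62 ± 0.41, adjusted p = 5.46e-04 and Havcr2 (TIM-3) by 1.49 ± 0.33, adjusted p = 0.00436 (up to 0.0581 with 1 array left out).

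Cell death and inflammasome genes gave 11 rises and 1 fall among 23. Mlkl, the pore-forming effector of necroptosis, read 11.26 and 11.08 on the LPS/IFNg arrays, against 6.31, 5.37 and 6.01 on the untreated arrays and rose by 5.27 ± 0.63, adjusted p = 8.87e-05. The death receptor Fas rose by 4.05 ± 0.65, adjusted p = 6.11e-04. Bcl2l11, which encodes the pro-apoptotic protein BIM, was the faller, with 7.498 and 7.44 on the LPS/IFNg arrays, against 10.10, 11.02 and 10.49 on the untreated arrays (difference of -3.07 ± 0.39, adjusted p = 1.34e-04).

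Most genes of the resting microglial identity fell. Of 33 tested homeostatic markers, 22 fell and 1 rose, with a median of -1.96. Tmem119 read 5.06 and 4.596 on the LPS/IFNg arrays, against 8.87, 6.75 and 9.34 on the untreated arrays and was detected on no LPS/IFNg array, a fall of at least 7.74-fold (adjusted p = 0.00161). Trem2, a lipid-sensing receptor, read 9.42 and 9.45 on the LPS/IFNg arrays, against 13.16, 13.78 and 13.43 on the untreated arrays and fell by 4.02 ± 0.25, adjusted p = 1.36e-06. Its signalling adaptor Tyrobp fell by 1.47 ± 0.22, adjusted p = 4.11e-04. Olfml3 fell by 5.09 ± 0.48, adjusted p = 1.99e-05, and Gpr34, a lysophosphatidylserine receptor, and the transporter gene Slco2b1 fell at least 19.8-fold and at least 97.1-fold. Slco2b1 was detected on all untreated arrays and on no LPS/IFNg array, with 4.57 and 4.37 on the LPS/IFNg arrays and 12.14, 11.63 and 12.13 on the untreated arrays. Fcrls fell by 3.42 ± 0.28, adjusted p = 6.79e-06, and Itgb5 by 4.11 ± 0.39, adjusted p = 1.84e-05. In bulk RNA, fewer cells of a type and less RNA of a gene per cell cannot be told apart. Of 10 tested general microglia and macrophage markers, 6 fell and 2 rose, with a median of -1.75. The fallers were Csf1r, Cx3cr1, P2ry12, Tmem119, Trem2 and Tyrobp, described above. The risers were Aif1, which encodes IBA1 (1.32 ± 0.26, adjusted p = 0.00227), and the leukocyte phosphatase Ptprc, CD45 (0.92 ± 0.29, adjusted p = 0.0255, up to 0.237 with 1 array left out).

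Gas6, a ligand that links phosphatidylserine to the MERTK receptor, read 6.91 and 7.42 on the LPS/IFNg arrays, against 12.97, 13.23 and 12.81 on the untreated arrays and fell by 5.84 ± 0.21, adjusted p = 4.77e-08. Pros1, protein S and the second such ligand, fell by 2.57 ± 0.24, adjusted p = 1.70e-05. The receptor gene Mertk read 11.37 and 11.25 on the LPS/IFNg arrays, against 9.84, 10.51 and 10.27 on the untreated arrays and rose by 1.11 ± 0.29, adjusted p = 0.0101, the only homeostatic member called higher (up to 0.0651 with 1 array left out). Groups did not overlap for any of these 3 genes.

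**Figure D4:**
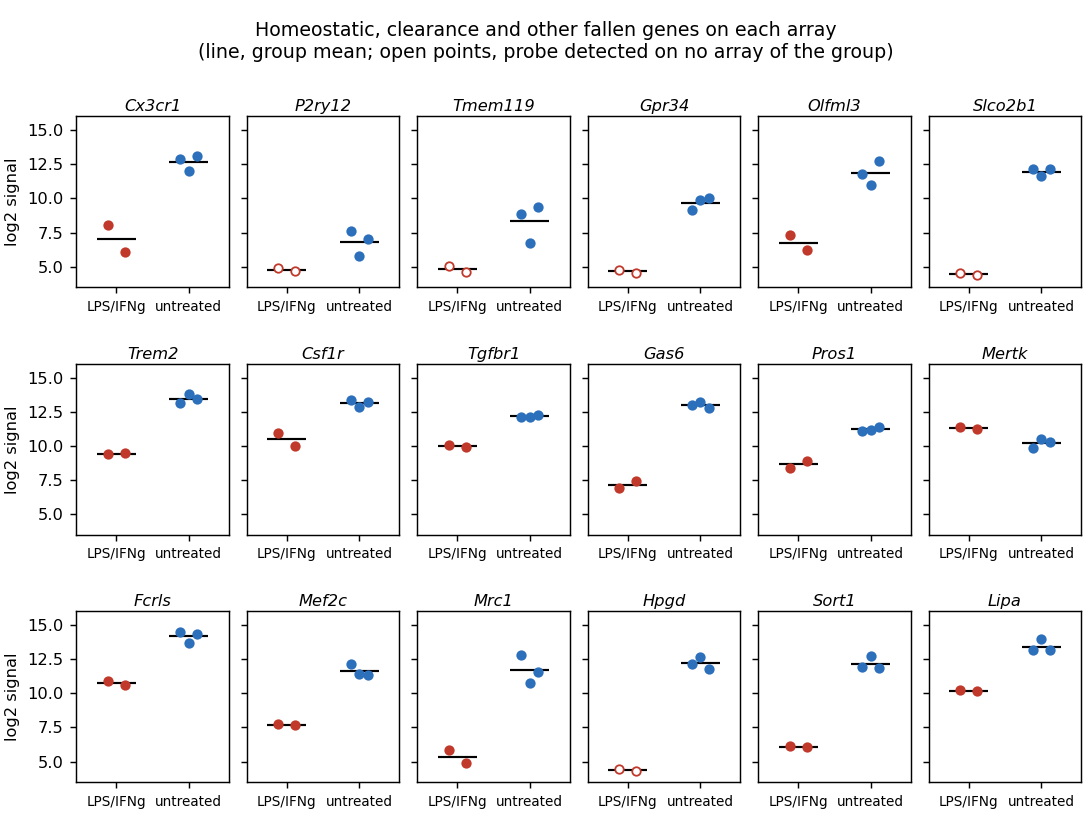
Log2 signal of 18 genes on each LPS/IFNg array (red) and each untreated array (blue). LPS/IFNg points lie below all untreated points in 17 panels and above them in the panel of Mertk. Open points mark probes detected on no LPS/IFNg array.

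Of 26 tested transcription factors of microglia and macrophages, 4 were higher (15.4%) and 7 lower (26.9%), near the shares of all genes. Mef2c, linked to microglial restraint, read 7.73 and 7.66 on the LPS/IFNg arrays, against 12.14, 11.42 and 11.34 on the untreated arrays and fell by 3.94 ± 0.42, adjusted p = 4.35e-05. Cebpa and Pparg were detected on no LPS/IFNg array and fell at least 3.14-fold and at least 5.38-fold, Sall3 fell by 2.30 ± 0.37, adjusted p = 6.54e-04, and Fos by 2.23 ± 0.25, adjusted p = 5.07e-05. Another AP-1 gene, Junb, rose by 1.203 ± 0.27, adjusted p = 0.00523. Nr1h3, the oxysterol-sensing liver X receptor alpha, read 8.38 and 8.39 on the LPS/IFNg arrays, against 5.63, 5.64 and 5.27 on the untreated arrays (rise of 2.87 ± 0.32, adjusted p = 6.11e-05), and Hif1a rose by 2.11 ± 0.37, adjusted p = 0.00114. Spi1, which encodes the lineage factor PU.1, rose by 0.62 ± 0.19, adjusted p = 0.0254, and Runx1 and Id2 fell by 0.81 ± 0.28 and 1.24 ± 0.42 (adjusted p = 0.0392 and 0.0359). These last 3 calls were lost with some array left out (adjusted p up to 0.282, for Runx1).

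Genes of damage-associated microglia, a state described around amyloid plaques in mice, were higher in 4 of 26 cases (15.4%) and lower in 14 (53.8%). Without untreated replicate 1 there were 2 rises and 13 falls. Ch25h, cholesterol 25-hydroxylase, read 13.36 and 13.37 on the LPS/IFNg arrays, against 9.79, 7.88 and 10.08 on the untreated arrays (rise of 4.11 ± 0.85, adjusted p = 0.00293), and Cst7, cystatin F, rose by 3.44 ± 0.64, adjusted p = 0.00157. Ank fell by 4.65 ± 0.35, adjusted p = 4.23e-06, and Timp2, an inhibitor of matrix proteases, by 4.28 ± 0.18, adjusted p = 1.02e-07 with 8.29 and 8.09 on the LPS/IFNg arrays and 12.39, 12.25 and 12.76 on the untreated arrays. In the list of alternative activation genes, best known from IL-4, 3 of 27 rose and 4 fell (11.1% and 14.8%). Mrc1, the mannose receptor CD206, read 5.82 and 4.93 on the LPS/IFNg arrays, against 12.78, 10.75 and 11.54 on the untreated arrays and fell by 6.32 ± 0.82, adjusted p = 1.47e-04. Stab1, the scavenger receptor stabilin 1, fell by 2.10 ± 0.25, adjusted p = 8.34e-05, and Ppargc1b, a coactivator of mitochondrial genes, rose by 2.13 ± 0.32, adjusted p = 4.13e-04.

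Of 25 phagocytic and scavenger receptors, 5 were higher and 9 lower (3 and 8 without LPS/IFNg replicate 1). The share higher, 20%, lies near that of all genes. Timd4, the phosphatidylserine receptor TIM-4, read 9.85 and 10.13 on the LPS/IFNg arrays, against 4.90, 4.84 and 4.95 on the untreated arrays. It was detected on no untreated array and rose at least 30.3-fold (adjusted p = 2.48e-08). Marco, a scavenger receptor for bacteria, rose by 4.32 ± 0.54, adjusted p = 1.20e-04, and Clec4e, the glycolipid receptor MINCLE, by 3.66 ± 0.44, adjusted p = 9.89e-05. Among 7 Fc receptors, Fcgr4 rose by 2.00 ± 0.45, adjusted p = 0.00463, whereas Fcgr3 fell by 1.11 ± 0.23, adjusted p = 0.0029 and the neonatal receptor Fcgrt by 2.37 ± 0.42, adjusted p = 0.00116. Complement genes gave 3 rises (21.4%, near the share of all genes) and 1 fall (7.14%) among 14. There were 3 falls without untreated replicate 2, and 1 rise with detection required on at least 4 arrays. The C1 inhibitor Serping1 rose at least 17.8-fold, factor B (Cfb) at least 4.37-fold and C4b by 1.62 ± 0.33, adjusted p = 0.00262. Cd59a, an inhibitor of the membrane attack complex, fell by 1.01 ± 0.24, adjusted p = 0.00681 (up to 0.0575 with 1 array left out).

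Most lysosomal genes fell. Of 35 tested, 24 fell and 1 rose (median -0.97). Lipa, lysosomal acid lipase, read 10.21 and 10.15 on the LPS/IFNg arrays, against 13.17, 13.96 and 13.14 on the untreated arrays and fell by 3.25 ± 0.38, adjusted p = 7.65e-05. Hexa, the alpha chain of hexosaminidase, fell by 2.96 ± 0.21, adjusted p = 2.37e-06, and the cathepsin Ctsf at least 4.7-fold. Npc2, a carrier of cholesterol out of the lysosome, rose by 0.82 ± 0.18, adjusted p = 0.00352. Among the other large falls of the whole array, Sort1, the sorting receptor sortilin, read 6.15 and 6.05 on the LPS/IFNg arrays, against 11.92, 12.70 and 11.86 on the untreated arrays (difference of -6.06 ± 0.50, adjusted p = 7.20e-06), and Man2a2, a Golgi mannosidase, fell at least 34.7-fold. St6gal1, a sialyltransferase, fell by 5.55 ± 0.49, adjusted p = 1.18e-05, Slc46a3 by 5.05 ± 0.35, adjusted p = 2.37e-06 and Zdhhc14 by 5.14 ± 0.19, adjusted p = 4.77e-08, and the ribonuclease gene Rnase4 at least 44.2-fold. Adssl1, an adenylosuccinate synthase, fell by 5.72 ± 0.60, adjusted p = 3.73e-05.

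Glycolysis and hypoxia-response genes gave 12 rises and 1 fall among 24. There were 6 rises and 2 falls without LPS/IFNg replicate 1, 15 and 0 without LPS/IFNg replicate 3, and 8 rises without untreated replicate 1 or 2. Slc2a6, a glucose transporter family member, read 12.55 and 12.45 on the LPS/IFNg arrays, against 8.27, 7.67 and 9.41 on the untreated arrays and rose by 4.05 ± 0.56, adjusted p = 2.46e-04. The phosphofructokinase gene Pfkp rose by 2.46 ± 0.22, adjusted p = 1.46e-05, and the hexokinase gene Hk3 by 2.24 ± 0.41, adjusted p = 0.00135. In the citric acid cycle list, which also holds the cytosolic enzyme Idh1, 3 of 24 rose and 7 fell, and the median was 0.05. Idh1, the cytosolic isocitrate dehydrogenase, read 6.69 and 7.05 on the LPS/IFNg arrays, against 11.06, 11.45 and 10.72 on the untreated arrays and fell by 4.21 ± 0.26, adjusted p = 1.28e-06. Idh2, the mitochondrial enzyme that uses NADP, fell at least 7.75-fold. Suclg2, a succinyl-CoA ligase subunit, fell by 1.56 ± 0.26, adjusted p = 7.59e-04, while the succinate dehydrogenase subunits Sdhb and Sdhd rose by 0.74 ± 0.21 and 0.92 ± 0.31 (adjusted p = 0.0145 and 0.033). No rise of this list was called under median scaling, where its median was -0.11, or without LPS/IFNg replicate 3, and 1 was called without LPS/IFNg replicate 1 or untreated replicate 2. The share of falls was 29.2%, and the adjusted p of Sdhb and Sdhd reached 0.128 and 0.169 with 1 array left out. Most respiratory chain and ATP synthase genes were not called (25 of 32). Cytochrome c (Cycs) rose by 1.81 ± 0.28, adjusted p = 4.93e-04.

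Cholesterol and fatty acid synthesis genes fell in 8 of 23 cases and rose in 1. The riser was Ch25h, described above. The fatty acid desaturase gene Fads1 read 7.51 and 6.93 on the LPS/IFNg arrays, against 11.90, 11.05 and 11.86 on the untreated arrays and fell by 4.38 ± 0.34, adjusted p = 4.96e-06. Sqle, squalene epoxidase, fell by 1.95 ± 0.42, adjusted p = 0.00367, and Dhcr7, a late enzyme of cholesterol synthesis, at least 3.67-fold.

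Cytosolic ribosomal protein genes mostly fell, by small amounts. Of 28 tested, 22 fell and 0 rose, with a median of -0.76. Rps19 read 12.54 and 12.28 on the LPS/IFNg arrays, against 13.70, 13.64 and 13.70 on the untreated arrays, and Rpl22 showed the largest fall (-1.34 ± 0.20, adjusted p = 4.29e-04). Under median scaling 12 fell and 0 rose, and with slide 2 alone 10 fell.

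Many mitosis and DNA replication genes fell. Of 35 cell cycle genes, 18 fell and 2 rose (13 and 1 without LPS/IFNg replicate 3). Cenpa, the centromeric histone, read 6.01 and 5.97 on the LPS/IFNg arrays, against 10.43, 10.11 and 10.57 on the untreated arrays and fell by 4.38 ± 0.29, adjusted p = 1.63e-06. Prc1, needed for cytokinesis, was detected on no LPS/IFNg array and fell at least 5.07-fold. Of the list's tested genes, 15 were detected on no LPS/IFNg array. Ccne1 (cyclin E1) rose at least 3.24-fold. Among G1 cyclins and their inhibitors, 6 of 19 rose (31.6%) and 4 fell (21.1%, near the share of all genes). The rises numbered 2 without LPS/IFNg replicate 1, and 3 without LPS/IFNg replicate 3, without untreated replicate 1, under median scaling or with no filter on dim probes. Ccnd2, cyclin D2, read 10.69 and 9.85 on the LPS/IFNg arrays, against 6.12, 4.49 and 4.84 on the untreated arrays and rose by 5.12 ± 0.80, adjusted p = 5.11e-04, and the stress-induced Gadd45b rose by 4.52 ± 0.30, adjusted p = 1.63e-06, while Cdk2 fell by 1.26 ± 0.15, adjusted p = 8.02e-05.

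Of 23 iron and antioxidant genes, 5 were higher (21.7%) and 6 lower (26.1%), near the shares of all genes. Slc40a1, the iron exporter ferroportin, read 7.33 and 7.54 on the LPS/IFNg arrays, against 11.49, 13.76 and 11.29 on the untreated arrays and fell by 4.74 ± 1.08, adjusted p = 0.00502. The glutathione peroxidase gene Gpx1 fell by 2.24 ± 0.31, adjusted p = 2.53e-04 and the metallothionein Mt1 by 2.14 ± 0.28, adjusted p = 1.49e-04. Sod2, mitochondrial superoxide dismutase, rose by 2.17 ± 0.24, adjusted p = 4.78e-05, and Cp, the ferroxidase ceruloplasmin, by 2.29 ± 0.54, adjusted p = 0.00626. Hmox1, heme oxygenase 1, differed by -0.64 ± 0.63, adjusted p = 0.448, with a 95% interval of -2.05 to 0.76. Stress and chaperone genes gave 8 rises and 1 fall among 21 (5 rises without LPS/IFNg replicate 1, and 0 falls without LPS/IFNg replicate 3 or untreated replicate 1 or 2), led by Hspa1a, an inducible HSP70 (at least 3.16-fold), Trib3 (2.14 ± 0.39, adjusted p = 0.00145) and Ddit3, which encodes CHOP (2.11 ± 0.42, adjusted p = 0.00247).

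Adhesion and matrix genes gave 8 rises and 4 falls among 29. Vcam1, the ligand of integrin alpha 4, was detected on no untreated array and rose at least 46.4-fold (10.84 and 10.37 on the LPS/IFNg arrays). Itgal, the alpha chain of LFA-1, rose by 3.64 ± 0.34, adjusted p = 1.69e-05, while Itga6 fell at least 9.57-fold. In the PARP family of ADP-ribosyltransferases 8 of 14 rose and 2 fell (1 fell without LPS/IFNg replicate 3). Parp10, Parp14 and Zc3hav1, the last an antiviral zinc finger protein, rose by 2.45 ± 0.21, 2.22 ± 0.43 and 2.08 ± 0.32, whereas Parp1, which acts at DNA breaks, read 9.29 and 9.31 on the LPS/IFNg arrays, against 10.42, 10.55 and 10.64 on the untreated arrays and fell by 1.24 ± 0.19, adjusted p = 4.29e-04. The adjusted p were 9.95e-06, 0.00197 and 4.89e-04 for the risers.

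**Figure D5:**
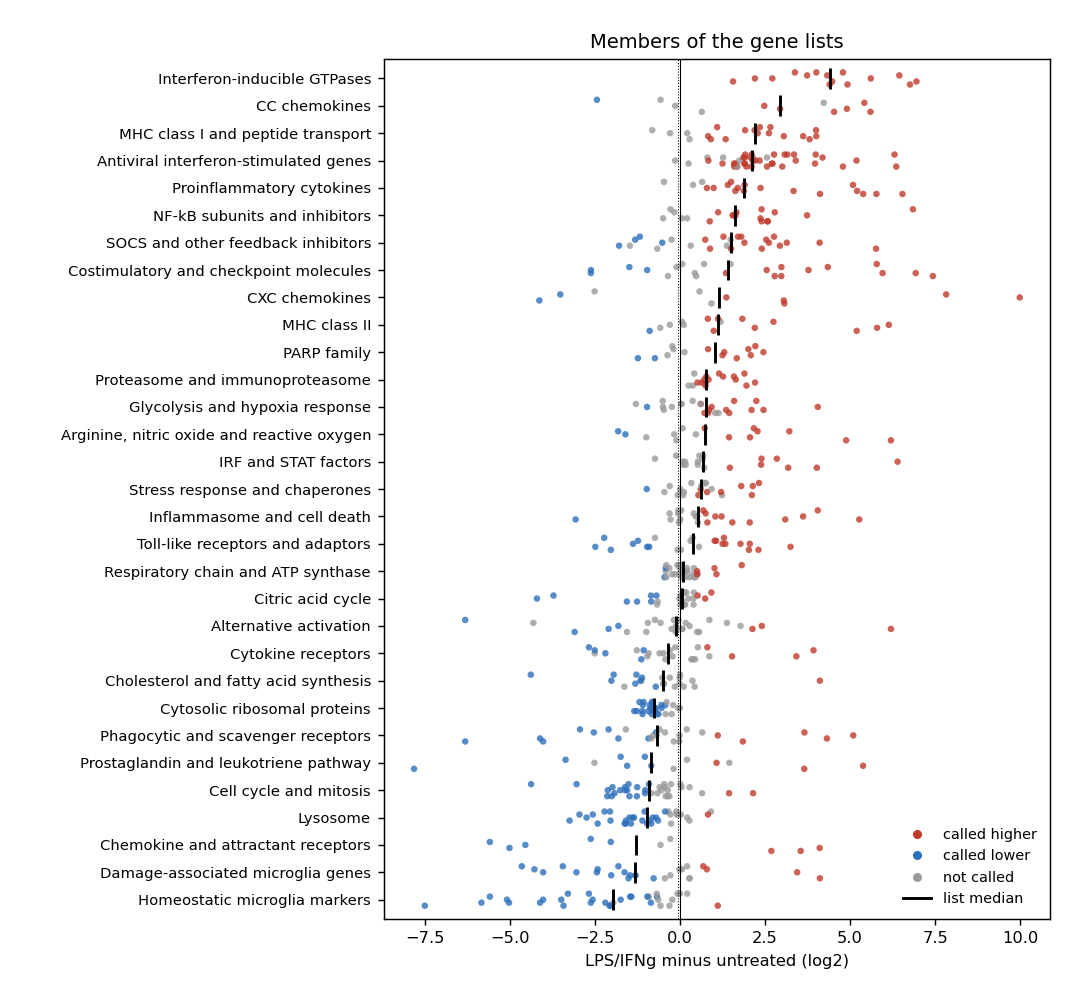
Difference between LPS/IFNg and untreated (log2) for every tested member of 31 gene lists, 1 point per gene coloured by the call, with the list median as a black bar and the median of all genes (-0.07) as a dotted line. The interferon-inducible GTPases have the highest median (4.40) and the homeostatic markers the lowest (-1.96).

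Called genes were also placed along the chromosomes. Over 8939 tested genes placed in RefSeq order (GRCm38.p6), 65 runs of at least 4 consecutive tested genes were called in 1 direction. Of these, 29 were higher and 36 lower. With 17.5% of all genes higher and 23.5% lower, some runs arise by position alone, and their number was not tested. The runs described below are all of risers. The guanylate-binding cluster on chromosome 3 (Gbp5, Gbp7, Gbp3, Gbp2b and Gbp2) continued into Pkn2 and Lmo4 as a run of 7 risers. On chromosome 17 H2-DMb2, H2-DMb1, Psmb9, Tap1, Psmb8 and Tap2 formed a run of 6, and on chromosome 5 Cxcl9 and Cxcl10 lay between Sdad1 and Nup54, which also rose (run of 4, lowest difference 0.93). Chromosome 11 held a run of 6 with Irgm1, Tgtp1 and Ifi47. The calls of Sdad1, Nup54 and Pkn2 were lost under median scaling, and those 3 and H2-DMb1 and H2-DMb2 with some array left out. These runs hold paralogs, for which cross-hybridisation was not tested.

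Of markers of other cells, 7 of 10 listed for astrocytes, 5 of 10 for oligodendrocytes, 4 of 10 for fibroblasts and mural cells, 2 of 8 for endothelium and 1 of 13 for lymphocytes and neutrophils passed the filter. Erythroid markers had no tested member, and neurons 1 (Rbfox3), detected on no LPS/IFNg array. Of 7 tested astrocyte markers 2 were detected on the LPS/IFNg arrays and 6 on the untreated arrays. Of the same 7, 1 was called lower (0 without either LPS/IFNg array or without untreated replicate 1 or 3). The log2 of the summed signals of all 7 was 8.03 to 8.10 on LPS/IFNg arrays and 7.48 to 8.25 on untreated arrays. This sum and those below include probes that were not detected. Fibroblast and mural markers (4 tested, 0 called) summed to 7.23 to 7.95 on LPS/IFNg arrays and 6.96 to 9.48 on untreated arrays. Endothelial markers (2 tested, 0 called, 2 higher without IL-4 replicate 1) summed to 7.55 to 8.02 on LPS/IFNg arrays and 6.07 to 6.84 on untreated arrays. The list of lymphocyte and neutrophil markers had 1 tested member, the calgranulin S100a8, which rose by 1.51 ± 0.40, adjusted p = 0.0113 (up to 0.117 with 1 array left out). Microglia and macrophage markers summed to 13.89 to 13.96 on LPS/IFNg arrays and 15.30 to 15.62 on untreated arrays. Of the oligodendrocyte markers Mbp, myelin basic protein, read 6.52 and 6.38 on the LPS/IFNg arrays, against 10.12, 10.09 and 9.98 on the untreated arrays and fell by 3.61 ± 0.18, adjusted p = 2.89e-07, while Cnp and Mag rose by 1.53 ± 0.39 and 1.49 ± 0.39 (adjusted p = 0.0088 and 0.011, up to 0.0625 and 0.0877 with 1 array left out). The oligodendrocyte markers together summed to 10.24 to 10.52 on LPS/IFNg arrays and 10.48 to 10.79 on untreated arrays. The part of other cell types in the results above was not tested.

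The LPS/IFNg arrays agreed closely, with a median gap of 0.235 log2 units between them and 80.7% of genes within 0.5. The largest gaps among called genes were those of Tgfbi, a TGFb-induced matrix protein, with 8.08 and 5.69 on the LPS/IFNg arrays and 11.69, 9.23 and 12.12 on the untreated arrays, Mgarp (7.96 and 5.59 on the LPS/IFNg arrays), Gab1 (7.03 and 5.34), St6gal1 (7.93 and 5.98) and Cx3cr1, described above. The fall of Tgfbi was 4.13 ± 0.91 (adjusted p = 0.00426, up to 0.0608 with 1 array left out). In all 5 of these, LPS/IFNg replicate 3 was the lower array. On both LPS/IFNg arrays, 1382 of the called risers lay above all 9 other arrays of the series, and 1865 of the called fallers below them.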

How the data were processed

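RNA of cultured mouse microglia was hybridised to 11 single-colour Illumina arrays on 2 slides. The deposited scanner table holds raw intensities and, per the file headers, detection p-values for each probe, with no stated normalisation. The deposited value table holds log2 values, which equalled quantile-normalised log2 signals plus 1 shift per probe and slide to within 0.00811. Its processing notes name Partek, with no version, per the submitters. Intensities were background-corrected, with the background inferred from the detection p-values, quantile-normalised and log2-transformed with an offset of 16 (neqc, limma 3.58.1, R 4.3.3). Of 45281 probes, 34885 had 1 gene symbol, 18 had several and 10378 had none, and 34807 symbols were updated through Entrez IDs. Probes detected at p below 0.01 on at least 2 of 11 arrays were kept, and the brightest passing probe per gene was used, giving 8952 genes. A limma model with 1 mean per group over all 11 arrays (7 residual and 3.52 prior degrees of freedom) gave moderated tests with Benjamini-Hochberg adjustment. An exact permutation test of 2 against 3 arrays cannot give a one-sided p below 0.1. The number of arrays limits the precision. Named genes are the 15 largest rises and falls, up to 3 called genes in each direction per list, a fixed panel, and the genes with the largest gaps between arrays or the brightest signals, and members of chromosomal runs, with receptor and marker lists named more fully. The gene lists and this choice were made with earlier results of these data known. Alternatives covered background correction, scaling, the filter, the slide and replicate blocks, the arrays fitted, array weights and each array left out. Promoter windows came from RefSeq (GRCm38.p6).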

Additional observations from a re-analysis of the deposited data

Results flagged for a closer look

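Probes that carry no gene symbol lie outside the comparison by gene. Of 2167 such probes that passed the detection filter, 321 were called higher and 374 lower in LPS/IFNg cells than in untreated cells. This was 32.1% in all, against 41% of the named genes. The shares are not like for like. Unnamed probes were called singly, with adjustment over all passing probes, and named genes by the brightest probe of each. The unnamed probes are given here because they hold signal that differs between the groups in data outside the comparison.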

How the results depend on the processing

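None of the 3674 called genes changed sign under any alternative run. The counts of 1568 higher and 2106 lower genes stayed within 1.5 times under all alternatives except 3. Median scaling called 1011 higher, the arrays of slide 2 alone called 927 higher and 1343 lower, and an added 2-fold threshold left 880 and 1306. With 1 of the 5 arrays or IL-4 replicate 1 left out, the counts lay between 1129 and 1732 higher and between 1507 and 2277 lower, and 2120 called genes passed whichever of the 5 arrays was left out. Leaving 1 LPS/IFNg array assumes that it varies like the other groups. With the replicate number as a block, 1621 genes were higher and 2210 lower (1496 and 2116 on the 5 arrays alone). Deviations of same-numbered LPS/IFNg and untreated arrays correlated at 0.202 for replicate 1 and -0.156 for replicate 3, over only 2 pairs, so the numbers were not taken as pairing. Of 234 called genes named in the text, 36 lost the call with some array left out, 31 with slide 2 alone and 9 under median scaling (Csf1, Nup54, Pkn2, Ptprc, Sdad1, Sdhb, Sdhd, Spi1 and Tlr9). With slide 2 alone the rises fell to 3 CXC chemokines, 5 arginine and nitric oxide genes, 5 inflammasome genes, 7 proteasome genes and 5 class II genes, and the falls to 10 ribosomal, 11 cell cycle and 4 cholesterol synthesis genes. Csf3 lost its call at a detection limit of 0.05 and with no filter. Arg1, which was not called, lay between -1.60 and 0.10 with 1 array left out and was positive only without untreated replicate 3. Another probe of a called gene had the opposite sign at an unadjusted p below 0.05 for 36 of 2135 such probes, and 25 genes had probes called in opposite directions. The cause of these differences was not tested. Dim probes give only bounds, and 1587 uncalled genes have a 95% interval that reaches beyond 1 log2 unit.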
